A study of Mus musculus with 2 samples.

Results

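The genes described here are 38 genes for nuclear receptors, all outside the retinoid and Hnf4 groups. The rule that defines them uses gene names and no measured value, but the group was chosen with earlier results of these data known. All 38 were found among the 21911 protein-coding genes of the GENCODE M21 annotation and among the 16825 of these with an open region in both libraries. Their gene bodies and the 2 kb upstream held 286 of the 110706 regions that were open in both libraries.

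Chromatin accessibility was measured by single-nucleus ATAC-seq, in which a transposase cuts open DNA in each nucleus, in E15.5 mouse kidneys. Each of the 2 groups had a single library, and differences between them have no replicate check. Enl-WT embryos were Enl+/+ Wt1GFPCre/+. Enl-T1 embryos were Enl flox-T1/+ Wt1GFPCre/+ and thus heterozygous for a knock-in of the Wilms tumour insertion p.117_118insNHL into Enl, a chromatin reader gene also called Mllt1. In both groups the Cre knock-in inactivates 1 allele of Wt1. The study describes this Cre as active in progenitors of the nephron and of the stroma. The sources used here do not give the number of embryos behind a library.

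Nuclear receptors are transcription factors that bind DNA through zinc fingers, many of them as dimers with a retinoid X receptor, and that exchange corepressors for coactivators when a small lipid-soluble ligand fills their ligand-binding pocket. Some steroid receptors, such as the glucocorticoid receptor, are held largely in the cytoplasm until hormone arrives. Receptors for thyroid hormone, vitamin D, fatty acids, oxysterols and bile acids can sit on DNA with or without ligand. Orphan receptors have no known physiological ligand. In the kidney this family is best known for hormonal control of salt and calcium handling in the tubule and for the control of fatty acid use in the proximal tubule. Accessibility is a measure of open DNA at a gene and not of its expression.

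A total of 9472 nuclei of Enl-WT (median 14789.5 counts) and 12635 of Enl-T1 (median 8753 counts) were kept, and 169 barcode sequences occurred in both libraries. Nuclei were clustered without the 286 receptor regions and named by marker genes. The nephron progenitor-like class had 1927 nuclei of Enl-WT, held by clusters 4 and n0, and 4182 of Enl-T1, held by clusters 1, 5 and 12. The progenitor marker Six2 was among the leading genes of clusters 4 and n0, whereas clusters 1, 5 and 12, led by genes such as Rit2 and Lamp5, had none of the progenitor markers among theirs. The 8 progenitor markers summed to 357 CPM (counts scaled to an equal class total) in Enl-WT and 295 CPM in Enl-T1, against 238 and 274 CPM in stroma-like nuclei. The stroma-like class had 2894 and 4718 nuclei in clusters 0, 3, 6, 10, 11 and 16, of which cluster 10 held 2 and 1145 and cluster 16 held 32 and 697. Ureteric epithelium-like nuclei numbered 870 and 1722 and endothelial-like nuclei 681 and 502. Differentiated nephron classes were larger in Enl-WT, with 259 and 0 proximal tubule-like, 627 and 60 distal tubule or loop-like and 351 and 5 podocyte-like nuclei, and a class led by Ambp and Slc6a19 that was not named further had 705 and 103. Levels in 10 classes are described, without 28 and 27 erythroid-like and 628 and 1120 unnamed nuclei. Levels are CPM of the class total in shared regions, and intervals are 95% intervals that cover counting error only.

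In Enl-WT the receptor genes were open in most classes and few were restricted to 1 of them. Only Nr0b2, which encodes the corepressor-like receptor SHP, was at least 2 times higher in its highest class than in the next, beside 3.87% of all genes, at 22.4 CPM (10.9 to 40.5) in immune-like nuclei and 5.80 CPM (3.72 to 8.63) in distal tubule or loop-like nuclei. With 1 of 38 genes called, the receptor genes are not set apart from that share of all genes. The Nr0b2 call rests on 21 counts in the 101 immune-like nuclei of Enl-WT. Which class was highest depended on the processing: it was the same for 22 of 38 genes with thinned nuclei, for 20 with regions at the gene start only and for 29 at a minimum of 5000 counts per nucleus. Thinned nuclei were each cut down at random to 800 fragments. Values with thinned nuclei are shares of nuclei with a fragment in the gene or region, not CPM. Ratios with thinned nuclei compare these shares. In Enl-T1 Nr0b2 stood at 27.3 CPM in immune-like nuclei from 30 counts. Per kb of called region in stroma-like Enl-WT nuclei, Nr1h2 (66.8 CPM per kb), Esrra (60.0) and Nr1d2 (43.8) were the most open receptor genes, whereas Rora, with the largest total, had 7.44 CPM per kb over 57 regions. For 29 of the 37 genes with enough counts, the class with the highest level among the progenitor-like, stroma-like, ureteric and endothelial-like classes was the same in both libraries, a share of 78.4% against 70.3% of all genes.

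**Figure D1:**
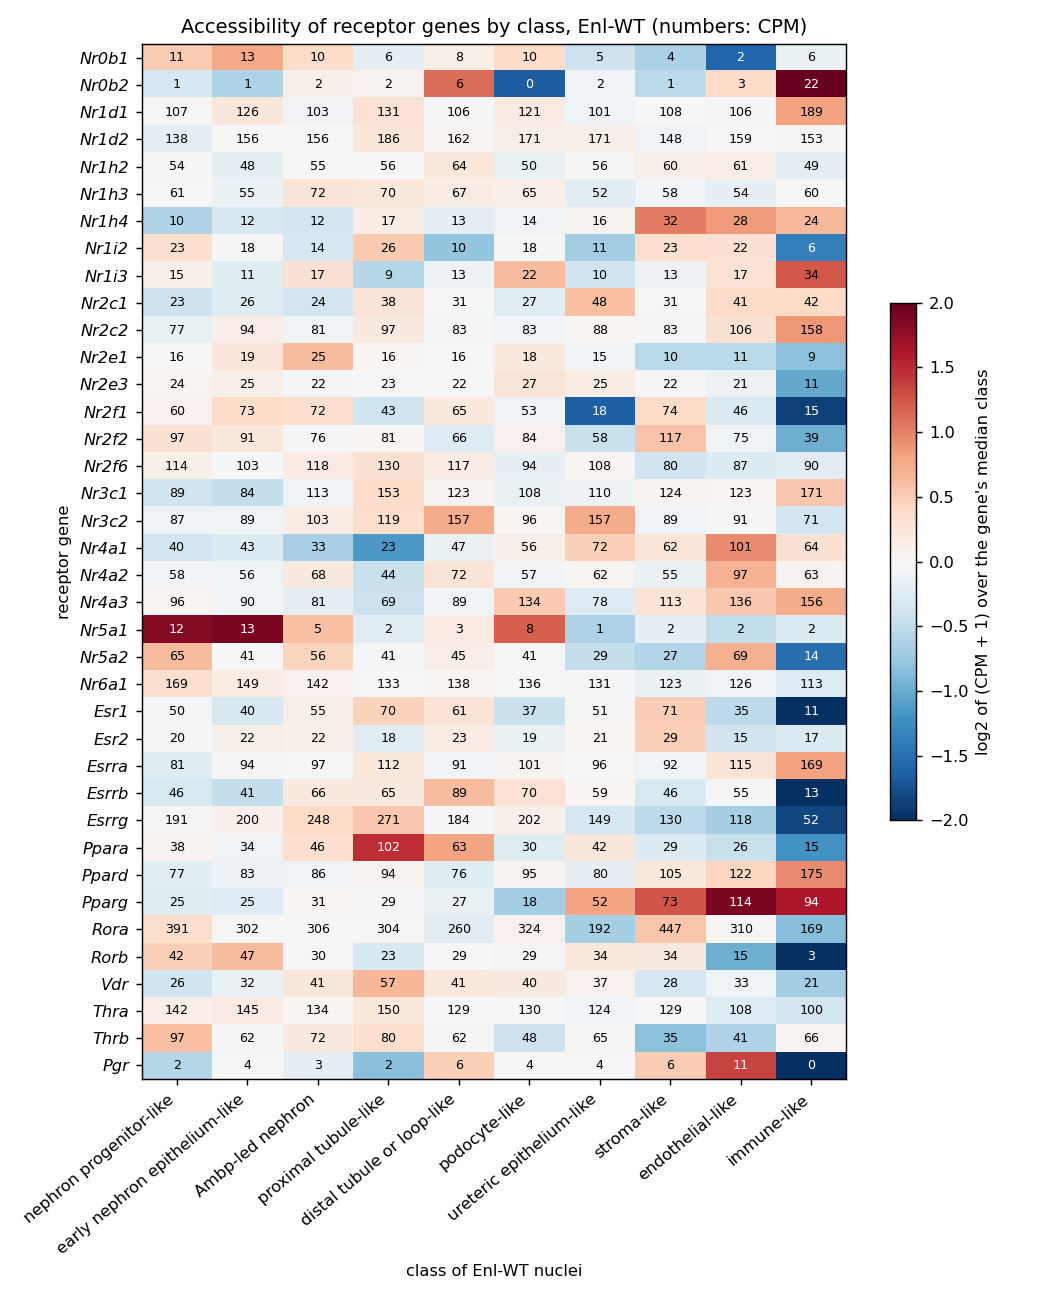
Accessibility of the 38 receptor genes in 10 classes of Enl-WT nuclei; the numbers are each gene's CPM, from its body plus 2 kb upstream, and the colour is the log2 of CPM + 1 over the gene's median class. Ppara is highest in proximal tubule-like nuclei (102 CPM), Pparg in endothelial-like nuclei (114 CPM, beside 93.7 CPM in immune-like nuclei) and Rora in stroma-like nuclei (447 CPM).

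Among the steroid receptors, Nr3c2, the mineralocorticoid receptor through which aldosterone drives sodium uptake, stood at 157 CPM (145 to 169) in distal tubule or loop-like nuclei and at 157 CPM (147 to 167) in ureteric epithelium-like nuclei of Enl-WT. The next class, proximal tubule-like nuclei, was at 119 CPM (104 to 136), below the interval of both. In Enl-T1 the ureteric level was 151 CPM (142 to 160), which overlaps that of Enl-WT. Nr3c1, the glucocorticoid receptor, was open throughout, from 84.1 CPM in early nephron epithelium-like nuclei to 171 CPM (136 to 213) in immune-like nuclei of Enl-WT.

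Esr1, the estrogen receptor alpha gene, was at 71.1 CPM (67.3 to 75.0) in stroma-like and 69.5 CPM (57.8 to 82.9) in proximal tubule-like nuclei, which did not differ beyond counting error, and was lowest in immune-like nuclei at 10.6 CPM. Esr2, which encodes estrogen receptor beta, was highest in stroma-like nuclei at 29.1 CPM (26.7 to 31.7), and its interval met that of distal tubule or loop-like nuclei at 23.2 CPM (18.8 to 28.3). Pgr, the progesterone receptor, was low everywhere, with 11.2 CPM (8.31 to 14.8) in endothelial-like nuclei, 1.91 times the stroma-like level of 5.87 CPM. Esrrg, an estrogen-related receptor that activates mitochondrial genes, was at 271 CPM (248 to 297) in proximal tubule-like nuclei and at 248 CPM (234 to 262) in the Ambp-led class, neighbours that did not differ beyond counting error. Its relative Esrrb, best known from pluripotent cells, stood at 89.4 CPM (80.5 to 99.0) in distal tubule or loop-like nuclei, and Esrra at 169 CPM (134 to 211) in immune-like, 115 CPM (106 to 126) in endothelial-like and 81.1 CPM (76.4 to 86.1) in progenitor-like nuclei. The single region of Esrra also lies in the window of Catsperz, so the 2 genes cannot be told apart.

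Among the receptors for lipids, Ppara, which switches on fatty acid oxidation, was at 102 CPM (87.4 to 118) in proximal tubule-like nuclei and at 62.6 CPM (55.2 to 70.7) in the next class, distal tubule or loop-like nuclei. No level of Enl-T1 can be set beside this, since 0 of its 12635 nuclei were proximal tubule-like (exact Clopper-Pearson interval of the share 0 to 0.0292%). That interval covers counting error within 1 library and not differences between embryos. The share also depends on how clusters were named: the class led by Ambp and Slc6a19, not named further, held 103 Enl-T1 nuclei. Pparg, the regulator of fat cell formation, was at 114 CPM (104 to 124) in endothelial-like and 93.7 CPM (68.1 to 126) in immune-like nuclei, whose intervals met, and at 72.7 CPM (68.8 to 76.7) in stroma-like and 25.1 CPM (22.5 to 27.9) in progenitor-like nuclei. Immune-like nuclei were the highest class of Pparg with thinned nuclei and with gene starts only, and in Enl-T1 they were at 145 CPM against 106 CPM in endothelial-like nuclei. Ppard was more even, from 76.2 CPM in distal tubule or loop-like to 175 CPM (139 to 217) in immune-like nuclei. Nr1h2 and Nr1h3, the oxysterol receptors LXR beta and LXR alpha, varied by 1.33 and 1.38 times over the classes, and 1 of the 4 regions of Nr1h3 lies also in the window of Acp2. Nr1h4, the bile acid receptor FXR, was at 32.2 CPM (29.7 to 34.9) in stroma-like, 28.4 CPM in endothelial-like and 9.77 CPM (8.18 to 11.6) in progenitor-like nuclei. Its region within 2.35 kb of the annotated start was 3.04 times higher in stroma-like nuclei than in the next class.

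Vdr, the vitamin D receptor, was at 56.5 CPM (46.0 to 68.7) in proximal tubule-like and at 41.5 CPM (36.0 to 47.5) in Ambp-led nuclei, with intervals that met. Thrb, the thyroid hormone receptor beta gene, was at 97.4 CPM (92.2 to 103) in progenitor-like and 35.5 CPM (32.8 to 38.3) in stroma-like nuclei, and Enl-T1 kept this order at 91.3 and 37.8 CPM. Thra, its widely expressed partner gene, spanned 100 to 150 CPM over the classes. The sensors of foreign compounds were low, with at most 26.3 CPM (19.3 to 35.0) for Nr1i2, the receptor PXR, in proximal tubule-like nuclei and 34.1 CPM (19.5 to 55.3) for Nr1i3, the receptor CAR, in immune-like nuclei. The only region of Nr1i3 is shared with the window of Tomm40l.

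The clock repressors Nr1d1 and Nr1d2 (REV-ERB alpha and beta) were open in each class, at 101 to 189 CPM and 138 to 186 CPM. Rora and Rorb encode activators that bind the same DNA element as the REV-ERB proteins. Rora was at 447 CPM (437 to 457) in stroma-like, 391 CPM (381 to 402) in progenitor-like and 192 CPM (181 to 203) in ureteric epithelium-like nuclei of Enl-WT, and the corresponding Enl-T1 levels were 436, 355 and 213 CPM. Rorb was at 46.7 CPM (39.1 to 55.3) in early nephron epithelium-like and 41.8 CPM (38.4 to 45.3) in progenitor-like nuclei against 14.5 CPM (11.2 to 18.5) in endothelial-like nuclei. Of the 7 shared Rorb regions, 1 lies at the gene start. The Rorb promoter is shown because Rorb had the gene-level difference with the most counts among the genes past the threshold used below. It is 300 bases from RefSeq on GRCm38.p6 at chr19:19111147-19111446, minus strand, and does not hold the letters AGGTCA, the hexamer bound by many nuclear receptors, on either strand.
Rorb promoter: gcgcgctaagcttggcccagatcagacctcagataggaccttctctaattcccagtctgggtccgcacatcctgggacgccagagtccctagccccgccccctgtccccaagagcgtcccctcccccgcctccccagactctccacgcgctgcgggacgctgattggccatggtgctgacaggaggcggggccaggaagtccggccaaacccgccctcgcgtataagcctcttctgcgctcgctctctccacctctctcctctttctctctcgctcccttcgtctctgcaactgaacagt

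The orphan receptors Nr2f1 and Nr2f2 (COUP-TFI and COUP-TFII), regulators of mesenchymal and vascular fates, were highest in stroma-like nuclei. Nr2f2 was at 117 CPM (112 to 122) there, at 97.2 CPM (92.0 to 103) in progenitor-like and at 57.7 CPM (51.9 to 64.1) in ureteric epithelium-like nuclei, and Nr2f1 was at 74.4 CPM (70.5 to 78.5) in stroma-like and 73.2 CPM (63.6 to 83.8) in early nephron epithelium-like against 17.6 CPM (14.4 to 21.2) in ureteric epithelium-like nuclei. Nr2f6 ranged from 79.5 CPM in stroma-like to 130 CPM in proximal tubule-like nuclei, and 1 of its 2 regions lies also in the window of Ocel1. The Nr4a genes are immediate early genes induced by growth factors and stress. Nr4a1 stood at 101 CPM (91.8 to 111) and Nr4a2 at 97.0 CPM (88.0 to 107) in endothelial-like nuclei, above their next classes at 72.2 CPM (65.6 to 79.3) and 71.9 CPM (63.9 to 80.5), and Nr4a3 at 156 CPM (123 to 197) in immune-like and 136 CPM (125 to 147) in endothelial-like nuclei.

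Nr5a1, the steroidogenic factor of adrenal and gonad, had a single shared region, at its start, and was at 12.5 CPM (10.7 to 14.5) in progenitor-like and 13.1 CPM (9.22 to 18) in early nephron epithelium-like nuclei against 2.33 CPM (1.68 to 3.14) in stroma-like nuclei. Nr0b1 (DAX1), which restrains Nr5a1, showed the same order of classes, with 10.5, 12.9 and 4.22 CPM. Nr5a2 (LRH1) was at 64.7 CPM (60.5 to 69.1) in progenitor-like and 68.6 CPM (61.1 to 76.7) in endothelial-like nuclei against 27.2 CPM (24.8 to 29.7) in stroma-like nuclei. Nr6a1 (GCNF), a repressor active in early embryos, varied by only 1.5 times over the classes and was highest in progenitor-like nuclei at 169 CPM (162 to 176). Nr2c1 and Nr2c2, the testicular receptors, had their highest levels at 48.1 CPM in ureteric epithelium-like and 158 CPM in immune-like nuclei, and Nr2e1 and Nr2e3, known from neural stem cells and photoreceptors, did not exceed 24.9 and 27.0 CPM.

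The comparison of Enl-T1 with Enl-WT asks whether accessibility at these genes changed with the mutation. Over all nuclei, 0 of the 38 genes had a log2 ratio of 0.5 or more and 0 of -0.5 or less, beside 1.55% and 1.41% of all genes. In progenitor-like nuclei 2 of 37 genes with at least 200 counts were higher (Rorb and Pgr, background 2.28%) and 1 was lower (Nr5a1, background 3.16%). In stroma-like nuclei 0 of 36 were higher (background 1.71%) and 1 was lower (Nr1i2, background 1.26%). In ureteric epithelium-like nuclei 0 of 34 were higher and 0 lower, beside 1.54% and 0.983% of all genes. In endothelial-like nuclei 2 of 33 were higher (Esr2 and Rorb, background 1.94%) and 2 lower (Nr1h4 and Vdr, background 1.85%). Each of these counts is 0 to 2 genes, too few to set apart from the background. The median log2 ratios of the receptor genes were -0.02 in progenitor-like and -0.02 in stroma-like nuclei, against 0.01 and -0.00 for all genes, -0.03 against -0.02 in ureteric epithelium-like and -0.04 against -0.01 in endothelial-like nuclei.

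Peaks were called in each library separately and the receptor regions of Enl-T1 were often narrower, which bears on ratios of summed counts. Per kb of called region the median log2 ratio of the receptor genes was 0.16 in progenitor-like and 0.16 in stroma-like nuclei, against 0.14 and 0.14 for all genes. On that scale Rorb, Pgr and Nr1h4 were past 0.5 and Nr5a1 past -0.5 in progenitor-like nuclei (7.28% and 1.72% of all genes), and in stroma-like nuclei Nr1i3 was past 0.5 and 0 genes past -0.5 (5.72% and 0.462% of all genes). In ureteric epithelium-like nuclei Nr1i2 and Nr1i3 were past 0.5 and 0 genes past -0.5 (5.92% and 0.241% of all genes). In endothelial-like nuclei Nr1i2, Nr1i3, Esr2 and Rorb were past 0.5 and Vdr past -0.5 (7.81% and 0.844% of all genes).

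**Figure D2:**
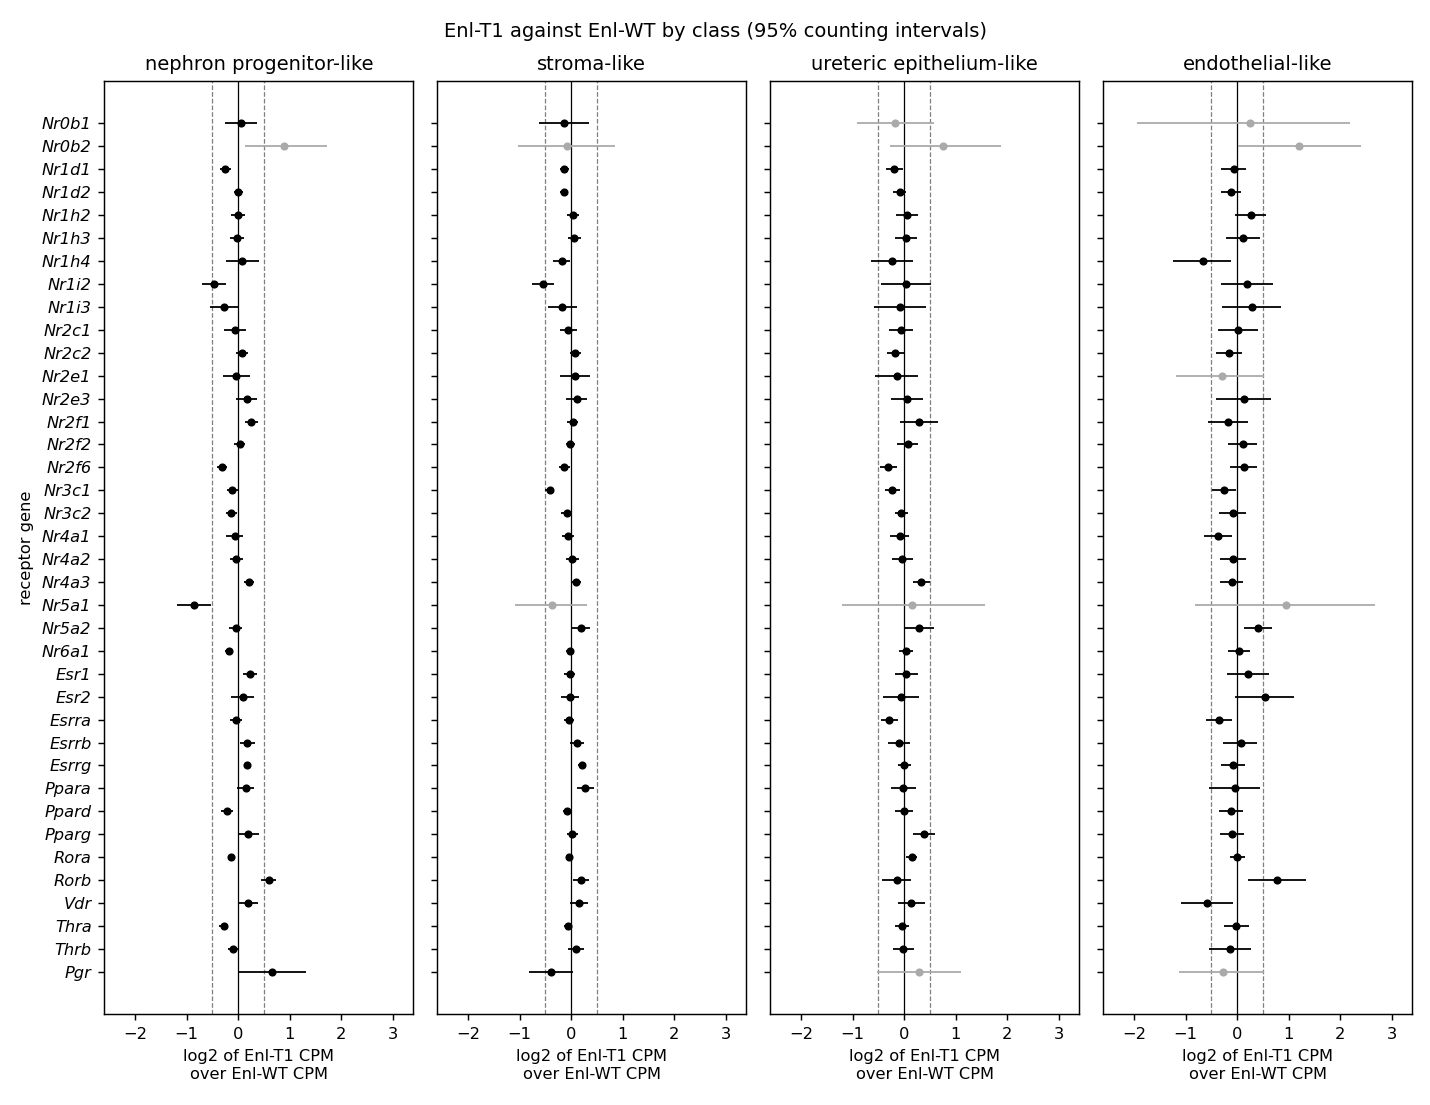
Log2 ratio of Enl-T1 CPM to Enl-WT CPM for each receptor gene in 4 classes, with 95% counting intervals as bars; grey points have under 200 counts over both libraries and dashed lines mark 0.5 and -0.5. Most genes lie near 0. In progenitor-like nuclei Rorb (0.60), Pgr (0.65) and Nr5a1 (-0.86) lie outside the dashed lines, and the intervals of Rorb (0.45 to 0.74) and Pgr (0.02 to 1.32) cross 0.5.

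Among the genes past the threshold, Rorb in progenitor-like nuclei had the most counts behind it. It rested on 1137 and 2506 counts, or 41.8 CPM (38.4 to 45.3) and 63.2 CPM (59.7 to 66.8), a log2 ratio of 0.60 (0.45 to 0.74). The called length was almost equal, 6.46 and 6.42 kb, and the level per kb was 6.46 and 9.84 CPM per kb. All 7 shared regions of the gene had a ratio above 0, from 0.47 to 1.09, and the region at the start, which contains the promoter printed above, had 459 and 970 counts and a ratio of 0.54 (0.31 to 0.77). Among clusters, Enl-WT nuclei had 38.7 CPM in cluster 4 and 48.4 CPM in cluster n0, and Enl-T1 nuclei had 70.0 CPM in cluster 1, 69.8 CPM in cluster 5 and 44.9 CPM in cluster 12, so the level of cluster 12 lay between the clusters of Enl-WT. The 81 nuclei of Enl-T1 that fell in cluster 4 were at 38 CPM from 29 counts, close to the Enl-WT nuclei of that cluster. The markers of early nephron epithelium summed to 292 CPM in Enl-WT and 377 CPM in Enl-T1 progenitor-like nuclei, and their part in the Rorb difference was not tested. With doublets removed, 1329 Enl-T1 nuclei beside 1 of Enl-WT formed a cluster that took a neural name, the progenitor-like class of Enl-T1 fell to 2483 nuclei, and the Rorb ratio was 0.49, under the threshold. In stroma-like nuclei Rorb was at 33.8 CPM (31.2 to 36.6) and 38.5 CPM (35.7 to 41.5), with a ratio of -0.00 (-0.20 to 0.19) at the start region, and in ureteric epithelium-like nuclei at 34.3 CPM (29.8 to 39.3) and 31.0 CPM (27.2 to 35.2). In endothelial-like nuclei Rorb was higher in Enl-T1 too, at 14.5 CPM (11.2 to 18.5) and 24.7 CPM (18.2 to 32.6) from 128 and 98 counts, a ratio of 0.77.

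Nr5a1 was lower in Enl-T1 progenitor-like nuclei, at 6.88 CPM (5.77 to 8.14) against 12.5 CPM (10.7 to 14.5), a log2 ratio of -0.86 (-1.20 to -0.53) from 340 and 273 counts in a region of similar called length, 1.15 and 1.01 kb. The clusters of Enl-T1 were at 8.20, 6.47 and 4.88 CPM and those of Enl-WT at 11.1 and 15.6 CPM. The 81 nuclei of Enl-T1 in cluster 4 were at 13.1 CPM, within that range, but from 10 counts. The ratio was inside the threshold with cluster 1 of Enl-T1 set against cluster 4 of Enl-WT (-0.43) and with thinned nuclei (-0.47). Pgr was at 2.24 CPM (1.52 to 3.19) and 3.53 CPM (2.75 to 4.46), a ratio of 0.65 (0.02 to 1.32) that rests on 61 and 140 counts. Together these counts barely reach the minimum set for a gene. The Pgr ratio was past the threshold in 7 of 13 alternatives and between 0.38 and 0.49 in the other 6. No ratio of Pgr was obtained with doublets removed, matched peaks, components 2 to 15 or gene starts only, so its call was not tested there.

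Nr1i2 was at 22.9 CPM (20.8 to 25.2) in Enl-WT and 15.7 CPM (13.9 to 17.6) in Enl-T1 stroma-like nuclei, a ratio of -0.55 (-0.77 to -0.33). Its shared regions covered 3.81 kb in Enl-WT but 2.62 kb in Enl-T1, and per kb the levels were 6.02 and 5.99 CPM per kb. With regions matched by extent in both libraries the ratio was -0.35, and in stroma clusters held by both libraries -0.47, so the call was lost in both. In progenitor-like nuclei Nr1i2 stood at 22.8 CPM (20.3 to 25.5) and 16.5 CPM (14.7 to 18.4), and in ureteric epithelium-like nuclei at 10.7 CPM (8.28 to 13.7) and 11 CPM (8.76 to 13.6).

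Nr3c1 showed a similar dependence on called length. In stroma-like nuclei it was at 124 CPM (119 to 129) and 92.5 CPM (88.2 to 97.0), a ratio of -0.42 (-0.51 to -0.33) that lay inside the threshold. Most of its counts came from 1 exon-overlapping region 28.9 kb from the annotated start, with 3679 and 2635 counts, which was 2.86 kb long in Enl-WT and 1.95 kb in Enl-T1 and had 35.2 and 36.6 CPM per kb. With matched regions the gene's ratio was -0.08.

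Past the thresholds in endothelial-like nuclei, Nr1h4 had a ratio of -0.67 (-1.25 to -0.12) from 251 and 71 counts, Vdr -0.58 (-1.10 to -0.08) from 292 and 88 counts, and Esr2 0.54 (-0.04 to 1.11) from 136 and 89 counts. Rorb was at 0.77 in this class, the highest ratio of the receptor genes there. Per kb of called region Nr1h4 was at -0.22, inside the threshold, Vdr at -0.56 and Esr2 at 0.58. The intervals of Nr1h4, Vdr and Esr2 are wide or reach past 0. Each gene named here has under 1000 counts, so a minimum of 1000 counts per gene removes it and does not test its call.

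The remaining genes stayed within the threshold in the progenitor-like and stroma-like classes. In progenitor-like nuclei the largest, besides Nr1i2 at -0.47 (-0.70 to -0.24), were Nr2f6 at -0.32 (-0.41 to -0.22), Thra at -0.28 (-0.37 to -0.19), Nr1i3 at -0.27 (-0.55 to 0.00) and Nr1d1 at -0.25 (-0.35 to -0.15) on the lower side, and Nr2f1 at 0.25 (0.12 to 0.38), Esr1 at 0.23 (0.10 to 0.37) and Nr4a3 at 0.22 (0.12 to 0.32) on the higher side. The lower side did not hold per kb of called region, where Nr1i2 was at 0.07, Nr2f6 at -0.02, Thra at 0.06, Nr1i3 at 0.45 and Nr1d1 at 0.30, while Nr2f1 was at 0.34, Esr1 at 0.37 and Nr4a3 at 0.30. Nr1d1 and Thra share a region, so their ratios are not separate observations. In stroma-like nuclei Ppara stood at 0.27 (0.11 to 0.44) and Esrrg at 0.20 (0.12 to 0.28). Esrrg was also higher in progenitor-like nuclei, at 191 CPM (184 to 198) and 216 CPM (210 to 223), and at 149 and 149 CPM in ureteric epithelium-like nuclei. The highest ratios in ureteric epithelium-like nuclei were those of Pparg at 0.38 (0.18 to 0.59) and Nr4a3 at 0.33 (0.16 to 0.50). Only Nr0b2 in progenitor-like nuclei, and Nr0b2 and Nr5a1 in stroma-like nuclei, had under 200 counts and were not counted.

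Single regions were past the threshold more often than whole genes. A region holds no more counts than its gene, and the part of counting error in this was not tested. In progenitor-like nuclei 27 of 190 receptor regions were higher in Enl-T1 by 0.5 log2 or more (14.2%) and 33 lower (17.4%), beside 13.6% and 14.9% of all regions, so the receptor genes were near the background. In stroma-like nuclei 18 of 201 were higher (9.87% of all regions) and 16 lower (8.19% of all regions). Among regions of similar extent in both libraries, 22 of 135 were higher and 19 lower in progenitor-like nuclei, beside 13.9% and 12.3% of all such regions, and 10 of 135 were higher and 4 lower in stroma-like nuclei, beside 9.85% and 5.60%.

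Within 1 gene, regions could differ in opposite directions. In Nr3c2 an intronic region 315 kb from the start, at chr8:77213810-77215393, had 7.31 CPM in Enl-WT and 1.08 CPM in Enl-T1 progenitor-like nuclei from 199 and 43 counts, a log2 ratio of -2.75 (-3.50 to -2.07). It was called over 1.57 kb in Enl-WT and 0.873 kb in Enl-T1, and per kb the ratio was -1.91. With thinned nuclei it was -1.12, as a ratio of shares of nuclei and not of CPM. Another intron of the same gene, at chr8:77082772-77083818, had 0.918 CPM and 6.48 CPM from 25 and 257 counts, a ratio of 2.82 (1.98 to 3.79), with 0.990 and 1.05 kb called, and between 1.61 and 1.63 at Leiden resolution 2 and at count minimums of 1000 and 5000. In ureteric epithelium-like nuclei these regions were at 5.03 and 3.88 CPM and at 3.38 and 3.55 CPM, with ratios of -0.37 (-1.16 to 0.40) and 0.07 (-0.81 to 0.97). The whole gene was at 87.4 CPM (82.5 to 92.5) and 79.6 CPM (75.7 to 83.6) in progenitor-like nuclei.

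**Figure D3:**
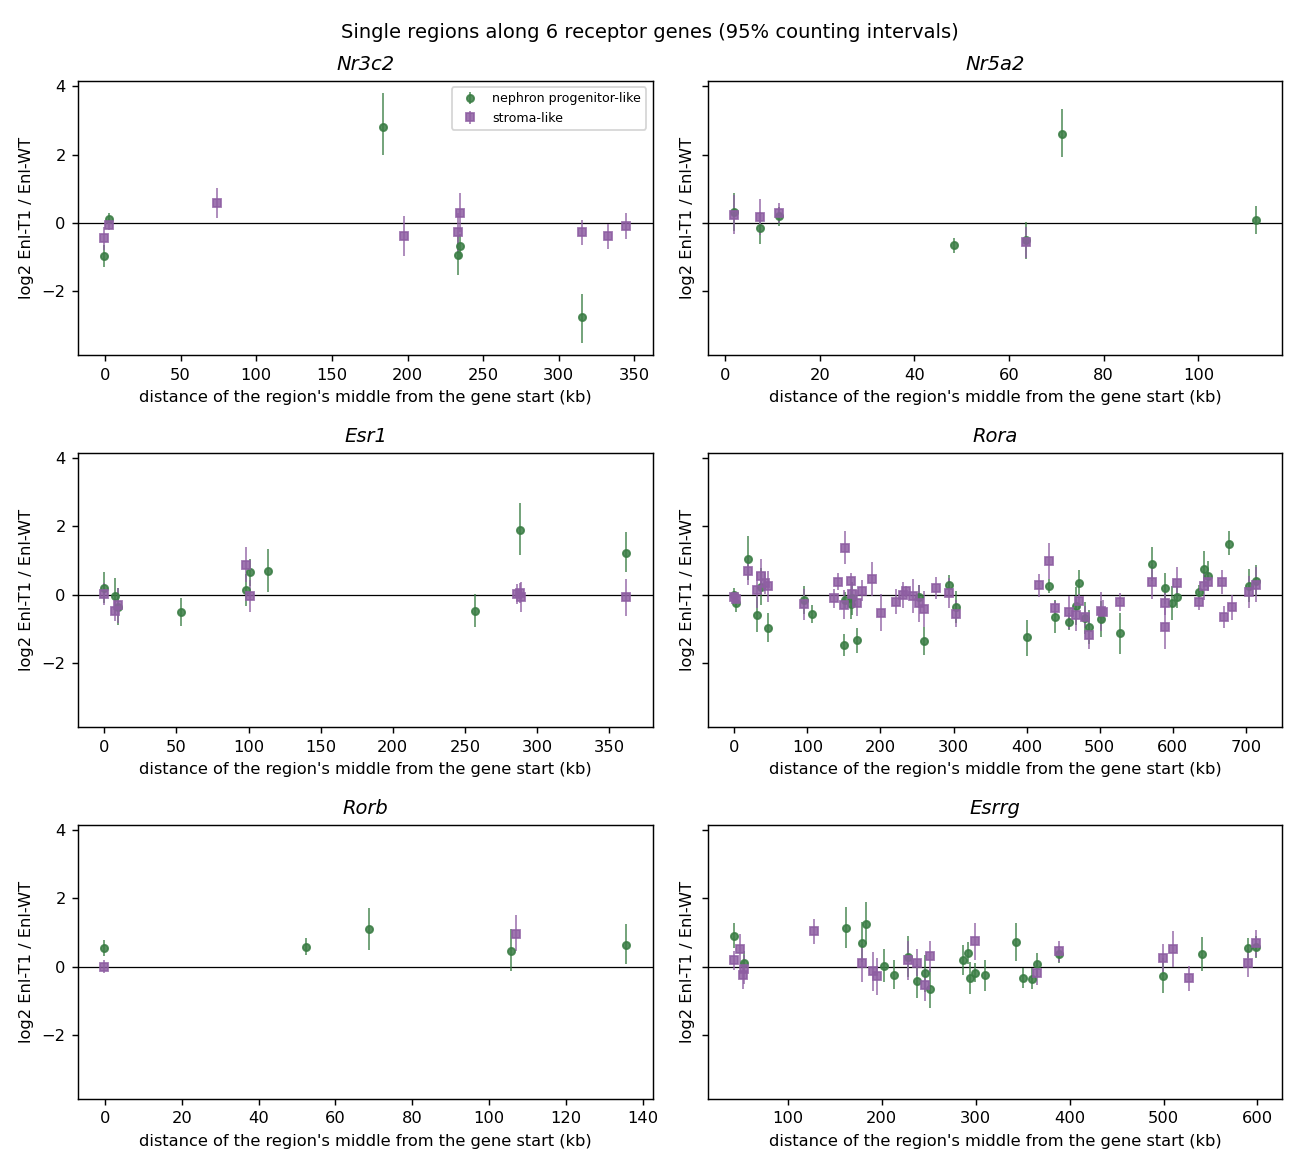
Log2 ratio of Enl-T1 to Enl-WT for single regions along 6 receptor genes, against the distance of the region's middle from the gene start in kb, with 95% counting intervals; circles are progenitor-like and squares stroma-like nuclei, for regions with at least 200 counts. In Nr3c2 progenitor-like regions reach 2.82 and -2.75, and the regions shown of Rorb lie above 0 in progenitor-like nuclei.

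Nr5a2 had an intronic region at chr1:136888626-136889819, 71.2 kb from its start, at 1.51 CPM in Enl-WT and 9.07 CPM in Enl-T1 progenitor-like nuclei from 41 and 360 counts, a ratio of 2.59 (1.93 to 3.33), or 2.25 per kb and 1.38 with thinned nuclei. In the same nuclei another of its introns, at chr1:136911650-136912671, was among the most class-restricted receptor regions of Enl-WT, 4.46 times higher in progenitor-like nuclei than in the next class. In Esr1 the region at chr10:4899110-4900045, in an intron, had 1.4 CPM and 5.17 CPM, a ratio of 1.89 (1.17 to 2.68). By share of thinned nuclei its ratio was 0.37, under the threshold. In stroma-like nuclei the region was at 10.9 and 11.2 CPM. This region was stroma-restricted in Enl-WT, 3.42 times above the next class, and in Enl-T1 progenitor-like nuclei its level was 5.17 CPM against 11.2 CPM in stroma-like nuclei.

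Rora gave the other 2 of the 3 lowest ratios in progenitor-like nuclei. Its intronic region at chr9:68803796-68804908 had 17.7 CPM and 6.40 CPM from 483 and 254 counts, a ratio of -1.47 (-1.79 to -1.15), with 1.07 and 0.992 kb called. The region at chr9:68912455-68913490 had 10.5 and 4.16 CPM, a ratio of -1.34 (-1.75 to -0.94), or -0.98 per kb. In ureteric epithelium-like nuclei the first was at 0.660 and 1.91 CPM and the other at 0.330 and 0.855 CPM. In stroma-like nuclei the Rora region at chr9:68805153-68806425, next to the first of these, was higher in Enl-T1, at 2.88 and 7.43 CPM from 105 and 274 counts, a ratio of 1.37 (0.90 to 1.86), while in progenitor-like nuclei, where it was 6.93 times above the next class in Enl-WT, it was at 20.5 and 18.5 CPM. The Rora region at chr9:69084255-69085057 was also higher in stroma-like nuclei, with a ratio of 0.98 (0.47 to 1.5), as was that of Esrrg at chr1:187736358-187737397, with 1.03 (0.67 to 1.4), or 0.71 per kb. That Esrrg region was higher in progenitor-like nuclei too, at 1.03 (0.28 to 1.84), and in ureteric epithelium-like nuclei at 1.98 (0.82 to 3.34) from 15 and 74 counts.

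The lowest ratios in stroma-like nuclei depended on the called length. At chr9:69138864-69140749 in Rora the ratio was -1.18 (-1.58 to -0.79), but the region was 1.89 kb in Enl-WT and 0.810 kb in Enl-T1 and per kb the ratio was 0.04. At the start of Nr1i2, chr16:38294733-38296652, it was -1.11 (-1.55 to -0.69) from 293 and 137 counts, with 1.92 and 0.907 kb called and a ratio of -0.03 per kb. At chr9:69242184-69243237 in Rora it was -0.95 (-1.58 to -0.34), or -0.51 per kb and -0.44 with thinned nuclei.

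**Figure D4:**
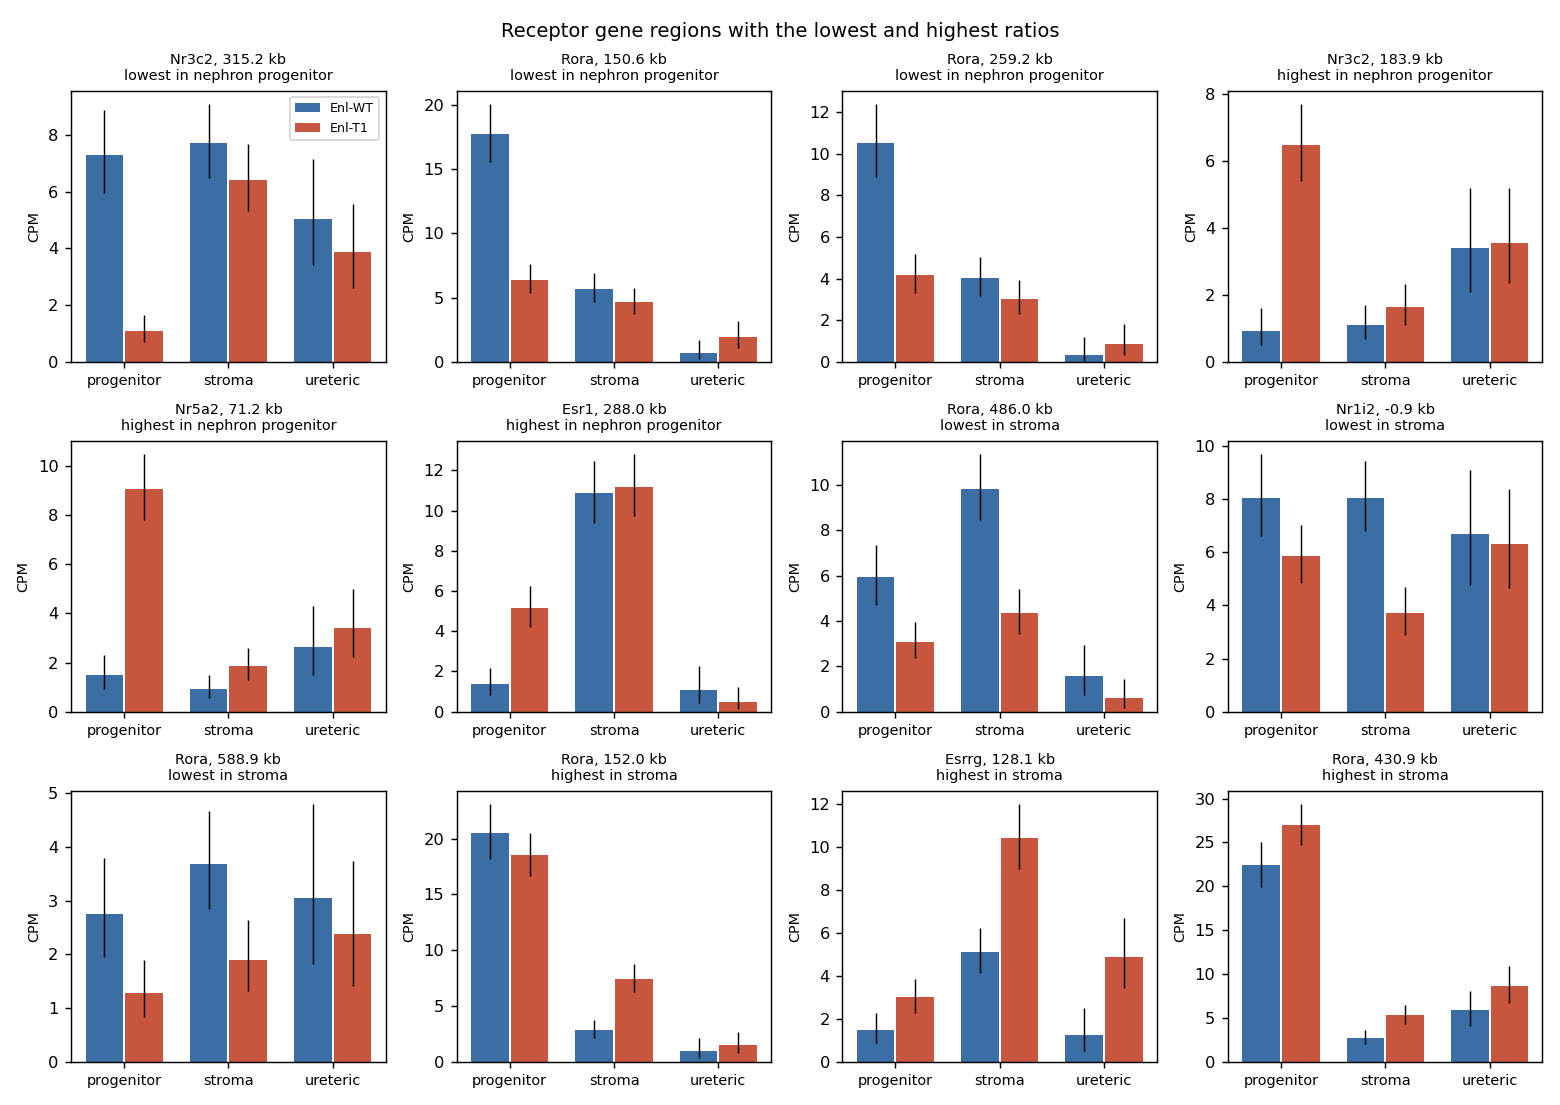
CPM of the 12 receptor gene regions with the 3 lowest and 3 highest ratios in progenitor-like and in stroma-like nuclei, in Enl-WT (blue) and Enl-T1 (red), with 95% counting intervals; kb is the distance from the gene start. The Nr3c2 region at 183.9 kb is at 0.918 CPM in Enl-WT and 6.48 CPM in Enl-T1 progenitor-like nuclei and differs little in ureteric epithelium-like nuclei.

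The middle 300 bases of 4 of these regions in GRCm38.p6, plus strand, are shown because they are the introns of Nr3c2, Nr5a2 and Rora that differ most in progenitor-like nuclei. Capitals mark the hexamer AGGTCA, to which many nuclear receptors bind, or TGACCT where it lies on the minus strand. The Rora sequence holds 2 of them, and in the other 3 sequences these letters do not occur.
Nr3c2 chr8:77214451-77214750: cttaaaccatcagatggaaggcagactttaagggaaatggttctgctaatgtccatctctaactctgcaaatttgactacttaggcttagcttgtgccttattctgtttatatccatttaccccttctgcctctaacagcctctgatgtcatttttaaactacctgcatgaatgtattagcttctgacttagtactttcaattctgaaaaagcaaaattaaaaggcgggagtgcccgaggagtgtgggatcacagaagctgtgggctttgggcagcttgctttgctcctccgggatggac
Nr3c2 chr8:77083145-77083444: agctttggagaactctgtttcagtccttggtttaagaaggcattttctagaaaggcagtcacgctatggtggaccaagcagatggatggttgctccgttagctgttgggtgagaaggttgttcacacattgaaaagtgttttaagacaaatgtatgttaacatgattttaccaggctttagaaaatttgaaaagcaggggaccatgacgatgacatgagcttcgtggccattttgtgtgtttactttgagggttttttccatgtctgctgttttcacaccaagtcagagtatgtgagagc
Nr5a2 chr1:136889072-136889371: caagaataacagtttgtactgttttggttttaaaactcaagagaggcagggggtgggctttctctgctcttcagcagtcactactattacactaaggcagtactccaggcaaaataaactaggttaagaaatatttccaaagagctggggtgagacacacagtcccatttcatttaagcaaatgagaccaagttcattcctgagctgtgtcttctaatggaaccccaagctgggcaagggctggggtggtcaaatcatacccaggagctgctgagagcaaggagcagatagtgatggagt
Rora chr9:68804202-68804501: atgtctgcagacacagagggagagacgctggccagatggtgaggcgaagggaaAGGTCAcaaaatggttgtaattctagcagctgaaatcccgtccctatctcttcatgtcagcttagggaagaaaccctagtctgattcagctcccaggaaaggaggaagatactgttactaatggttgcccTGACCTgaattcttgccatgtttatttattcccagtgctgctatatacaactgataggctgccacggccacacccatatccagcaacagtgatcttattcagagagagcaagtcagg

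The hexamer AGGTCA, on either strand, was in the middle 300 bases of 54 of the 286 receptor regions (18.9%), against 19.3% of 110665 regions. It was in 8 of 48 RefSeq promoters of 35 receptor genes (16.7%), against 16.3% of 32851 promoters, and these belong to Nr0b1, Nr1d2, Nr1h4, Nr5a2, Nr6a1, Pparg and Thrb. Nr3c1, Nr5a1 and Thra had no promoter in the table used. The hexamer AGAACA, bound by steroid receptors, was in 55 receptor regions (19.2%) against 22.2%, and in 5 promoters against 19.0%. The longer AAAGGTCA, bound by Nr4a proteins and overlapping AGGTCA, was in 2 receptor regions (0.699%) against 1.83% of all regions, 1 of them the Rora region printed above. TCAAGGTCA, which overlaps AGGTCA too and is bound by Nr5a and estrogen-related receptors, was in 0 receptor regions and 0 receptor promoters, against 0.603% and 0.423%. The E-box CACGTG, bound by the clock activators, was in 18 receptor regions (6.29%) against 5.59%, and in 4 promoters (8.33%) against 7.15%.

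Across classes of Enl-WT, single regions were more often restricted than genes, but each holds no more counts than its gene. The part of counting error in this was not tested. Of 222 receptor regions with enough counts, 45 (20.3%) were at least 2 times higher in their highest class than in the next, against 23.9% of all regions. They were highest in stroma-like nuclei for 18 regions, progenitor-like for 10, endothelial-like for 9, proximal tubule-like for 3, ureteric epithelium-like for 2, immune-like for 2 and podocyte-like for 1. As shares of the 222 regions these were 8.11% for stroma-like, 4.50% for progenitor-like, 4.05% for endothelial-like and 0.901% for ureteric epithelium-like nuclei, against 9.91%, 3.38%, 4.30% and 3.17% of all regions. An intron of Nr5a2 at chr1:136915176-136916076 led by 8.42 times in endothelial-like nuclei, at 23.8 CPM. Introns of Thrb led by 2.47, 4.01 and 5.00 times in progenitor-like nuclei, and 1 intronic and 1 exonic region of Nr3c2 led by 5.99 and 3.13 times in stroma-like nuclei, although the gene as a whole was highest in distal tubule or loop-like and ureteric epithelium-like nuclei.

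The genes through which these receptors act were given as lists chosen with earlier results known. Of 21 partner and coregulator genes, which include the retinoid X receptors, NCoR and SMRT corepressor subunits and p160 coactivators, 0 were past the threshold in either direction in any of the compared classes, where 0.983% to 3.16% of all genes were. In progenitor-like nuclei their ratios ran from -0.27 for Ncoa1, a p160 coactivator, at 58.7 and 48.7 CPM, to 0.24 for Ppargc1a, the coactivator of mitochondrial genes, at 62.6 and 73.8 CPM. Of 31 known target genes 30 had a shared region and 0 were past the threshold, beside the same background. In endothelial-like nuclei only 20 of the partner and coregulator genes and 24 of the target genes had at least 200 counts. With shares this low, 0 genes in lists of this size is not set apart from the background. In progenitor-like nuclei the target genes ran from -0.50 to 0.38. The lowest was Pdk4, a Ppar target that inhibits pyruvate dehydrogenase, at 24.4 and 17.3 CPM. The highest was the estrogen target Greb1, at 113 and 148 CPM. Hsd11b2, which protects the mineralocorticoid receptor from glucocorticoids, was at 52.0 and 37.3 CPM, a ratio of -0.48 (-0.63 to -0.33) that was -0.04 per kb of called region.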

How the data were processed

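Single-nucleus ATAC-seq of 1 library of Enl-WT and 1 of Enl-T1 kidneys was analysed. Per the labels, the authors aligned reads to mm10 with Cell Ranger ATAC 2.1.0, which called nuclei and peaks in each library separately, and deposited raw counts of cut sites per peak and barcode (138176616 and 110265593 counts over 9628 and 13376 barcodes, in 159560 and 130027 peaks). Intervals cover counting error only, and counts were divided by 2 to give fragments for them.

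Barcodes with 2000 to 100000 counts were kept. Peaks that overlapped by 1 bp were joined into shared regions, which held 88.8% and 94.9% of the counts. Nuclei were clustered on latent semantic components 2 to 30 with 15 neighbours (leidenalg 0.10.2, resolution 1), and doublets were kept. Clusters were named from marker lists by a rule revised after the clusters were seen. A gene's level is the sum over its body and 2 kb upstream, in CPM of the class total, for genes with at least 200 counts. No test was possible between single libraries, so a log2 ratio of 0.5 served as threshold. Ratio intervals are exact conditional binomial intervals and CPM intervals exact Poisson intervals. The ratios and their intervals were tested on simulated Poisson counts drawn from the summed gene counts of Enl-WT. Those counts follow the counting model that the intervals assume, and the sums and the joining of peaks were not tested. Python 3.11.15, NumPy 2.4.6, SciPy 1.17.1 and pandas 2.3.3 were used, and edgeR 4.0.16 gave TMM scale factors only.

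The members, the gene lists and the comparisons were chosen with earlier results of these data known. The text names all 38 genes, gives values in full for those past the threshold, and names the 3 lowest and 3 highest regions of each of 2 classes. Values per kb of called region, class-leading regions, the agreement over 4 classes and Nr3c1 in stroma-like nuclei were chosen after their values were seen. Peaks called in 1 library only (47872 of Enl-WT, 17478 of Enl-T1) were left out of the comparisons.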

Additional observations from a re-analysis of the deposited data

Results flagged for a closer look

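Of the receptor gene regions called in 1 library only, the Enl-WT library had 129 among its 47872 own peaks and the Enl-T1 library 41 among 17478, beside 286 of 110706 shared regions. They enter no comparison, because counts exist only inside called peaks and the level in the other library is not known here. At least 200 counts were reached by 5 of the Enl-WT regions in progenitor-like and 12 in stroma-like nuclei, and by 9 and 8 of the Enl-T1 regions, so such regions occurred in both libraries. The following were called in Enl-T1 only and held at least 200 counts in a compared class, and no difference between the groups was tested. The Enl-WT regions that reached 200 counts are not named, so this list does not show a gain in Enl-T1.

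In progenitor-like nuclei of Enl-T1, a region 0.092 kb from the start of Nr6a1 held 875 counts, and 450 counts in stroma-like nuclei. These are 22.1 and 12.2 CPM, beside 16.9 CPM in ureteric epithelium-like nuclei of Enl-T1. A region 0.64 kb from the start of Esrrg held 325 counts in progenitor-like and 294 in stroma-like nuclei. That is 8.19 and 7.98 CPM, beside 9.47 CPM in ureteric epithelium-like nuclei of Enl-T1. Introns of Esrrg held 511 counts at 290.446 kb and 234 counts at 42.323 kb from the start in progenitor-like nuclei. In stroma-like nuclei introns of Esrrg held 212 counts at 27.955 kb, 210 at 100.72 kb and 231 at 497.112 kb. In progenitor-like nuclei Rora had regions with 385 counts at 474.674 kb, 236 at 653.034 kb and 426 at 694.145 kb. An intron of Esr1, 283.566 kb from the start, held 327 counts and an intron of Vdr, at 14.289 kb, held 332 counts in the same class. In stroma-like nuclei introns of Nr1h4 held 375 counts at 50.91 kb, of Nr4a1 229 counts at 6.51 kb and of Pparg 238 counts at 111.146 kb.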

How the results depend on the processing

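Single genes were recomputed in progenitor-like and stroma-like nuclei only, and there no called value was reversed; the called endothelial-like genes were not recomputed singly. Of these ratios of single genes 1011 stayed within their interval and 130 moved, and of those of single regions 116 stayed and 8 moved. Some settings could not move a value. A stricter naming lead gave the same classes, and leaving out regions of other genes left genes without such regions unchanged. In progenitor-like nuclei the sign was the same under each alternative for 15 of 37 genes, and in stroma-like nuclei for 10 of 36, so the sign of most genes near 0 is not settled.

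The number of receptor genes past the threshold over all nuclei (0) was 2 with thinned nuclei, 2 with regions at the gene start only and 3 with all peaks of each library. In progenitor-like nuclei (3) it was 1 with doublets removed, where 1329 Enl-T1 nuclei took a neural name and left the class, 1 at a minimum of 1000 counts per gene and 0 at a fold of 1 log2. In stroma-like nuclei (1) it was 3 with thinned nuclei, 0 with matched peaks, 2 with doublets removed, 0 with components 2 to 15, 2 with gene starts only, 2 with all peaks and 0 at a fold of 1 log2. It was 0 with stroma clusters of both libraries, a setting chosen after seeing the data. In ureteric epithelium-like nuclei (0) it was 6 with thinned nuclei, 2 with matched peaks, 1 with gene starts only and 1 with no count minimum. In endothelial-like nuclei (4) it was 11 with thinned nuclei, 1 with matched peaks, 1 at Leiden resolution 2, 0 with gene starts only, 0 at a minimum of 1000 counts and 0 at a fold of 1 log2. Scaling by the median of ratios and by TMM gave stroma-like medians of -0.0682 and -0.0698, beside -0.0493 and -0.0508 for all genes. For ureteric epithelium-like nuclei they gave -0.1204 and -0.1158, and for the endothelial-like class -0.1346 and -0.1268 (all genes under the median of ratios: -0.112 and -0.104). The number of genes with a leading class (1) was 2 at a minimum of 5000 counts per nucleus, 5 with gene starts only and 2 with doublets removed, and the highest class was the same for 29, 20 and 35 of 38 genes there and for 22 with thinned nuclei. The minimum of 1000 counts per gene left out Nr5a1 and Pgr in progenitor-like nuclei and the called genes in endothelial-like nuclei. It therefore does not test whether those calls hold. The cause of the other shifts was not tested.

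Rorb in progenitor-like nuclei stayed above 0 throughout, from 0.22 with cluster 12 of Enl-T1 alone to 0.86, and was under 0.5 with doublets removed (0.49), thinned nuclei (0.36) and cluster 12. Nr5a1 ranged from -1.59 to -0.43 and Pgr from 0.38 to 0.94, past the threshold in 15 of 17 and 7 of 13 alternatives. Some of these alternatives could not move the value and are no support for it. The stricter naming lead and regions of no other gene returned -0.86 for Nr5a1 and 0.65 for Pgr again. Gene starts only did so for Nr5a1, whose single shared region lies at its start. Pgr had no ratio with doublets removed, matched peaks, components 2 to 15 or gene starts only, and those settings do not test its call. No paired analysis was possible because each group has 1 library.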
